A study of Mus musculus with 14 samples.

Results

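Small leucine-rich proteoglycans are secreted matrix proteins, and 8 of their genes were followed through mouse hearts under pressure overload: Lum, Dcn, Bgn, Ogn, Prelp, Aspn, Podn and Omd. They were chosen by name from the family, with earlier results of these data known, and are 8 of the 51912 genes counted. Their levels were read in 14 heart RNA libraries of C57BL/6J mice, made from poly(A)-enriched RNA. The groups were wild-type sham (4 libraries, of which 2 came from mice aged 11 weeks and 2 from mice aged 10 weeks), Clk3 knockout sham (4 libraries, with the same ages), wild-type TAC (2 libraries, 10 weeks) and Clk3 knockout TAC (4 libraries, 10 weeks). TAC, transverse aortic constriction, narrows the aorta and loads the left ventricle, and sham mice have the surgery without the constriction. CLK3 is a kinase that phosphorylates splicing factors. The labels do not state the knockout allele, the time from surgery to collection, the sex of the mice or the part of the heart used.

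These proteoglycans share a core of leucine-rich repeats that folds into a curved solenoid. Most carry chondroitin, dermatan or keratan sulfate chains, bind fibrillar collagen, and set fibril thickness and spacing. Decorin and biglycan also bind TGF-beta, and biglycan freed from the matrix is a ligand of the innate receptors TLR2 and TLR4. In the heart they are made mainly by fibroblasts. Class I holds Dcn (decorin), Bgn (biglycan) and Aspn (asporin, whose core has a run of aspartates and which binds collagen at the site that decorin uses). Class II holds Lum (lumican), Prelp (prolargin, which also binds heparin and basement membrane) and Omd (osteomodulin, known from bone). Ogn (osteoglycin, also called mimecan) is class III, and Podn (podocan) is class V.

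The genes lie in clusters left by duplication. In GENCODE M21 (GRCm38), Dcn is at chr10:97479609-97518143 and Lum at chr10:97565128-97572703, on the plus strand with a gap of 47.0 kb. Aspn (chr13:49544443-49567565), Omd (chr13:49582462-49592822) and Ogn (chr13:49608046-49624501) follow each other on the plus strand with gaps of 14.9 and 15.2 kb. Bgn is at chrX:73483602-73495933, Prelp on the minus strand at chr1:133910304-133921414 and Podn on the minus strand at chr4:108014791-108096445. The RefSeq start-site table (GRCm38.p6) matched 6 members: Bgn, Ogn, Prelp, Aspn, Podn and Omd. The 250 bases before the start of 4 genes are shown because their levels differed most clearly between groups (Bgn, Prelp, Aspn) or because the gene lies in the same cluster as Aspn, on the other side of Omd, and had another pattern (Ogn). Each is written 5′ to 3′ on the gene's strand. Capitals mark matches, on either strand, to 4 motifs: TATAAA (the TATA box), GGGCGG (the GC box), CAGAC (the core bound by SMADs) and GGAATG (bound by TEADs).
Bgn (chrX:73483351-73483600, plus strand): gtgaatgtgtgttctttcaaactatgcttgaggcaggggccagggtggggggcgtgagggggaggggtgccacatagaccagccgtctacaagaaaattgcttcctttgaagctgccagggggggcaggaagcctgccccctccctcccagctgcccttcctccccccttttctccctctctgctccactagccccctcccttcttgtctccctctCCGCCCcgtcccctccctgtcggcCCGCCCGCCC
Prelp (chr1:133921402-133921651, minus strand): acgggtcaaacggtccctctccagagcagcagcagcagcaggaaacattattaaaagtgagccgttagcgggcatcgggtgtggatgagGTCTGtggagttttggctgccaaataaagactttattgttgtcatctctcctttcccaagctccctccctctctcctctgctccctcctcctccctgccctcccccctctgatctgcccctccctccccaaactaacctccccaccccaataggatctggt
Aspn (chr13:49544193-49544442, plus strand): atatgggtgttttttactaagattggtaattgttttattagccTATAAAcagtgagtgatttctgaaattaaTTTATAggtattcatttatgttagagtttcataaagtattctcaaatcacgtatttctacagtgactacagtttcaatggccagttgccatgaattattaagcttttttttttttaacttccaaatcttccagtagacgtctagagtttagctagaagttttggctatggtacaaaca
Ogn (chr13:49607765-49608014, plus strand): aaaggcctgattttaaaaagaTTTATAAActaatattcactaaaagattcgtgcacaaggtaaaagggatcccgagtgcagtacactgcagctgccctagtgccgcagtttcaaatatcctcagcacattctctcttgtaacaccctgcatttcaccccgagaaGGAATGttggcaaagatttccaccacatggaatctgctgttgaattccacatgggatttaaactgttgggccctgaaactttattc

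Bgn had no TATAAA and 3 GC boxes, all close to the start, and a GC content of 64.4% against a median of 52.4% over 32851 promoters. Aspn was at the other end, with 30.0% GC and 2 matches to TATAAA, both far from the start. Ogn had 42.0% GC, 2 overlapping matches to TATAAA and 1 to GGAATG, and Prelp had 55.6% GC and 1 match to CAGAC. Among windows of the same length over all promoters, TATAAA was found in 12.4%, GGGCGG in 32.7%, CAGAC in 42.2% and GGAATG in 12.6%, so none of these letters is rare. The Bgn and Aspn windows held no match to CAGAC or GGAATG, which says only that these letters are not in these windows. The neighbours on chromosome 13 differed among themselves, since Omd (38.4% GC) had no match to any of the 4 motifs.

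Library totals ran from 11385818 to 20369637 gene counts. Which part of Clk3 was deleted is not given, so its counts check the labels only in part. Clk3 was read at 50.7 to 67.4 CPM (counts scaled to the library size, adjusted by TMM) in the 8 knockout libraries and at 73.2 to 96.0 in 5 of the 6 labelled wild type. The sixth, the library labelled wild-type TAC 1, had 54.2. A pseudogene of a ribosomal protein gene, Gm8730, was at 57.4 to 67.1 CPM in the knockouts, at 1.26 to 1.63 in those 5 wild-type libraries, and at 66.8 in the library labelled wild-type TAC 1. That library therefore goes against its label, and the calls that rest on wild-type TAC are also given without it. Without it, the group is 1 library, assumed to vary like the other groups. Folds of genes outside the 8 members are given with it unless stated. Wild-type sham 1 also stood apart, with adipocyte markers summing to 14.4 CPM, Epyc at 2.11 CPM and Chad at 1.64 CPM, of which Epyc and Chad were at most 0.37 CPM elsewhere. The tissue label was met by myocyte markers (Myh6, Actc1, Tnnt2 and 7 others), which summed to between 41410 and 53741 CPM.

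A further library property bore on these genes. The longest principal transcripts of Aspn, Omd and Ogn had 34.3%, 36.1% and 36.3% GC, with 0.384%, 1.08% and 1.22% of the tested genes below them, and those of Lum and Dcn 41.9% and 42.8%. Bgn (52.5%), Prelp (53.8%) and Podn (57.2%) were above the median gene, at 49.7%. Libraries differed in how high GC-poor genes were read: the mean log2 CPM of the GC-poorest 20% of genes minus that of the richest 20%, called the GC gap here, was -0.13, -0.49, -0.31 and -0.65 in wild-type sham 1 to 4. It was -0.11 to -0.01 in knockout sham, -0.40 to -0.31 in knockout TAC, -0.57 in wild-type TAC 2 and -0.40 in the library labelled wild-type TAC 1. The gap thus differed between groups and within wild-type sham, and its part in the results was not tested beyond the added fit that carries it as a covariate.

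In wild-type hearts, 4 of the 8 genes rose after TAC: Aspn, Bgn, Lum and Prelp. Each change below is a log2 change from edgeR's quasi-likelihood test with its standard error (SE), and p is adjusted over 15651 genes by Benjamini-Hochberg. Of all genes tested, 12.2% passed 0.05 in either direction and 6.91% were higher. The median log2 change of the 8 was 0.87, beside -0.00 over all genes. The 4 genes that rose were also those whose TAC libraries lay above every sham library, which held for 16.4% of all genes.

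Aspn, the asporin gene, was read at 75.3, 32.2, 63.5 and 34.7 CPM in wild-type sham 1 to 4, at 120 in wild-type TAC 2 and at 176 in the library labelled wild-type TAC 1. Both TAC libraries were above the sham libraries, which themselves fell into a higher pair (1 and 3) and a lower pair (2 and 4). Aspn rose 2.89-fold (log2 1.53, SE 0.26, adjusted p = 0.00117). In knockout sham 1 to 4 it was at 50.7, 42.7, 47.0 and 54.4 CPM and in knockout TAC 1 to 4 at 60.9, 68.9, 74.4 and 82.8, again without overlap, but the change of 0.56 (SE 0.22) had an adjusted p of 0.106.

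Bgn, the biglycan gene, was at 246, 210, 253 and 289 CPM in wild-type sham, at 518 in wild-type TAC 2 and at 692 in the library labelled wild-type TAC 1. It rose 2.42-fold (log2 1.28, SE 0.16, adjusted p = 0.000116). The knockout sham libraries were lower, at 191, 148, 177 and 179 CPM, and did not overlap those of wild-type sham. For this comparison, the share of all genes without overlap was not computed. The knockout TAC libraries stood at 316, 306, 262 and 411 CPM, a 1.86-fold rise (log2 0.90, SE 0.13, adjusted p = 0.00148).

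Lum, the lumican gene, was at 137, 57.9, 93.1 and 64.8 CPM in wild-type sham, 146 in wild-type TAC 2 and 212 in the library labelled wild-type TAC 1. The separation was narrow, since wild-type sham 1 lay just under wild-type TAC 2. Lum rose 2.03-fold (log2 1.02, SE 0.24, adjusted p = 0.0108). The 4 knockout sham libraries were close together, at 86.9, 80.9, 83.2 and 83.9 CPM, and all knockout TAC libraries were higher, at 112, 114, 116 and 142. That change of 0.53 (SE 0.20) did not pass over all genes (adjusted p = 0.0967).

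Prelp, the prolargin gene, varied little within groups. It was at 59.0, 59.4, 61.7 and 63.5 CPM in wild-type sham, and after TAC at 97.6 in wild-type TAC 2 and 102 in the library labelled wild-type TAC 1. It rose 1.64-fold (log2 0.71, SE 0.09, adjusted p = 0.000116). In the knockout it was at 49.4, 40.4, 40.9 and 46.9 CPM after sham surgery and at 58.6, 58.8, 66.0 and 64.7 after TAC, a 1.40-fold rise (log2 0.48, SE 0.07, adjusted p = 0.00189). Knockout TAC hearts thus read Prelp at about the level of wild-type sham hearts, 62.0 ± 3.84 against 60.9 ± 2.09 CPM (SD, n = 4 each), which was not tested.

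**Figure D1:**
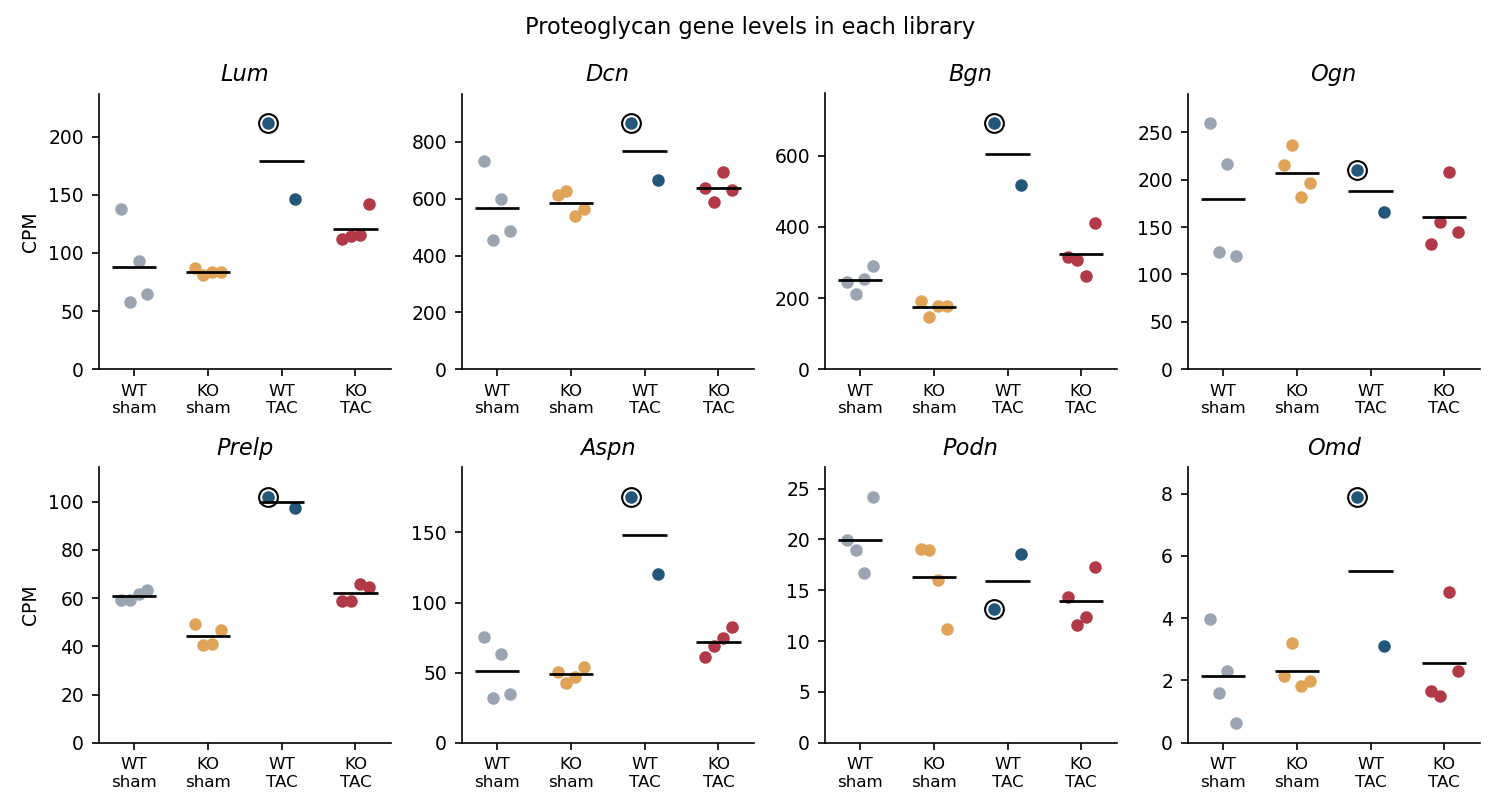
CPM of the 8 proteoglycan genes (y axis, linear, from 0) in each library, by group (x axis); each point is a library, each bar a group mean, and the ringed point is the library labelled wild-type TAC 1. Aspn, Bgn, Lum and Prelp are higher in both wild-type TAC libraries than in all wild-type sham libraries, while Ogn and Podn overlap.

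The other 4 genes did not pass the test in wild-type hearts. Dcn, by CPM the most abundant of the 8, was at 732, 456, 599 and 486 CPM in wild-type sham and after TAC at 667 in wild-type TAC 2 and 866 in the library labelled wild-type TAC 1, so that wild-type sham 1 lay above 1 TAC library (log2 0.43, 95% interval 0.11 to 0.75, adjusted p = 0.0752). In the knockout, Dcn was at 613, 626, 541 and 563 CPM after sham and 639, 590, 693 and 632 after TAC (log2 0.12, 95% interval -0.14 to 0.39). With the GC gap as a covariate, added after seeing the data, the knockout estimate was 0.48 (adjusted p = 0.0157), above the upper end of that interval.

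Ogn was at 260, 124, 217 and 120 CPM in wild-type sham and at 211 and 165 after TAC, inside the sham range (log2 0.07, 95% interval -0.49 to 0.62, adjusted p = 0.907). In the knockout it was at 216, 236, 182 and 197 CPM after sham and 132, 155, 208 and 145 after TAC, where 3 of 4 TAC libraries were below all sham libraries (log2 -0.37, 95% interval -0.82 to 0.08, adjusted p = 0.264). With the GC gap as a covariate, this estimate turned to 0.29 (adjusted p = 0.194).

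Podn was at 19.9, 18.9, 16.7 and 24.2 CPM in wild-type sham and 13.2 and 18.6 after TAC, and at 19.1, 18.9, 16.0 and 11.2 in knockout sham and 14.3, 11.6, 12.4 and 17.3 in knockout TAC. Its groups overlapped, with log2 changes of -0.33 (adjusted p = 0.372) and -0.23 (adjusted p = 0.410). Omd was the lowest, at 12 to 103 counts per library. Its levels were 3.98, 1.59, 2.30 and 0.65 CPM in wild-type sham, 3.11 in wild-type TAC 2, 7.90 in the library labelled wild-type TAC 1, 1.83 to 3.22 in knockout sham and 1.49 to 4.84 in knockout TAC. At this depth its change of 1.42 in wild type had a 95% interval of 0.30 to 2.54 (adjusted p = 0.0931).

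Without the library labelled wild-type TAC 1, the wild-type rise was called for 3 of the 8 genes, Bgn, Prelp and Aspn, while Lum went to 0.73 (adjusted p = 0.215), Dcn to 0.23 (adjusted p = 0.594) and Omd to 0.60 (adjusted p = 0.733). Without wild-type sham 1 it was called for 6, with Dcn and Omd added. The same 6 were called without wild-type TAC 2, where the group is only the library that goes against its label. With libraries of 10-week mice alone, Lum, Bgn, Prelp and Aspn were called again, with log2 changes of 1.18, 1.16, 0.67 and 1.59. All these are bulk tissue levels, in which more cells of a type and more RNA per cell cannot be told apart.

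In knockout hearts, 2 of the 8 genes rose after TAC, Bgn and Prelp, where 13.0% of all genes passed in either direction and 6.73% were higher. The median of the 8 was 0.35, beside -0.01 over all genes. Libraries did not overlap for Lum, Bgn, Prelp and Aspn, all higher after TAC, as for 10.6% of all genes. The GC gap differed between these groups without overlap, so the part of the gap and that of TAC cannot be told apart here. With the gap as a covariate, 6 of the 8 were called higher: Lum (log2 1.13, adjusted p = 0.00492), Aspn (1.20, adjusted p = 0.00492), Dcn (0.48, adjusted p = 0.0157), Omd (1.62, adjusted p = 0.029), Bgn and Prelp. The slope on the gap rests on its spread within groups, which was widest in wild-type sham. The share of all genes called in that fit is not given here. In the libraries of 10-week mice alone the estimates were 0.86 for Bgn (adjusted p = 0.066) and 0.50 for Prelp (adjusted p = 0.0599), and none of the 8 was called. With the share of reads outside annotated features as a covariate, which was 17.1% to 19.0% in knockout sham and 12.3% to 14.3% in knockout TAC, none was called either.

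Between the genotypes after TAC, Bgn and Prelp were lower in the knockout, 2 of the 8, where 1.48% of all genes passed and 1.11% were lower. Bgn was at 0.535 times its wild-type level (log2 -0.90, SE 0.16, adjusted p = 0.00947) and Prelp at 0.622 times (log2 -0.69, SE 0.09, adjusted p = 0.00105). Aspn, at 0.486 times, came closest of the others (log2 -1.04, SE 0.26, adjusted p = 0.0577), followed by Lum (log2 -0.56, SE 0.24, adjusted p = 0.289). All 4 genes had knockout TAC libraries below both wild-type TAC libraries, as 10.8% of all genes did. Without the library labelled wild-type TAC 1, Prelp was still called and Bgn was not (log2 -0.68, adjusted p = 0.168), and Aspn went to -0.74 (adjusted p = 0.356) and Lum to -0.27 (adjusted p = 0.752). Leaving out wild-type sham 1, 2 or 4 brought Aspn under the threshold, as did leaving out wild-type TAC 2, which keeps only the library labelled wild-type TAC 1 in that group (adjusted p between 0.0286 and 0.0408). With the GC gap as a covariate, 7 of the 8, all but Podn, were called lower, with Aspn at -1.37 and Lum at -0.86. That fit keeps the library labelled wild-type TAC 1 and was not run without it. Its share of calls over all genes is not given here, and the 1.48% and 1.11% above belong to the fit without the covariate.

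In sham hearts, Prelp alone of the 8 passed, at 0.729 times the wild-type level in the knockout (log2 -0.46, SE 0.07, adjusted p = 0.0176), where 0.888% of all genes passed and 0.313% were lower. Bgn was at 0.697 times (log2 -0.52, SE 0.13, adjusted p = 0.0707), with no overlap between genotypes. How large a share of all genes had no overlap between the sham groups was not computed. The Prelp call was lost without knockout sham 2 or 3 or wild-type sham 3 or 4, where adjusted p ran from 0.0509 to 0.0744. The estimates for Lum, Dcn, Aspn, Ogn and Omd were between -0.07 and 0.21 and those of Lum, Dcn, Aspn and Omd changed sign when single libraries were left out. The median of the 8 was -0.07. The GC gap differed between the sham groups without overlap, so the part of the gap and that of genotype cannot be told apart here. With the gap as a covariate, chosen after seeing the data, none of the 8 was called. Their median was then -0.50, with Lum at -0.73 (adjusted p = 0.111) and Aspn at -0.77 (adjusted p = 0.128).

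The difference between the TAC changes of the genotypes, tested as an interaction, was called for none of the 8 by edgeR's quasi-likelihood test, where 0.0192% of all genes passed. An unadjusted p under 0.05 was reached by 1 of the 8, Aspn, whose change was smaller in the knockout by 0.97 on the log2 scale (SE 0.34, adjusted p = 0.624), or by 0.67 without the library labelled wild-type TAC 1 (adjusted p = 0.894). DESeq2 called none. Both TAC comparisons and both genotype comparisons share libraries, so their values stand side by side and are not independent.

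**Figure D2:**
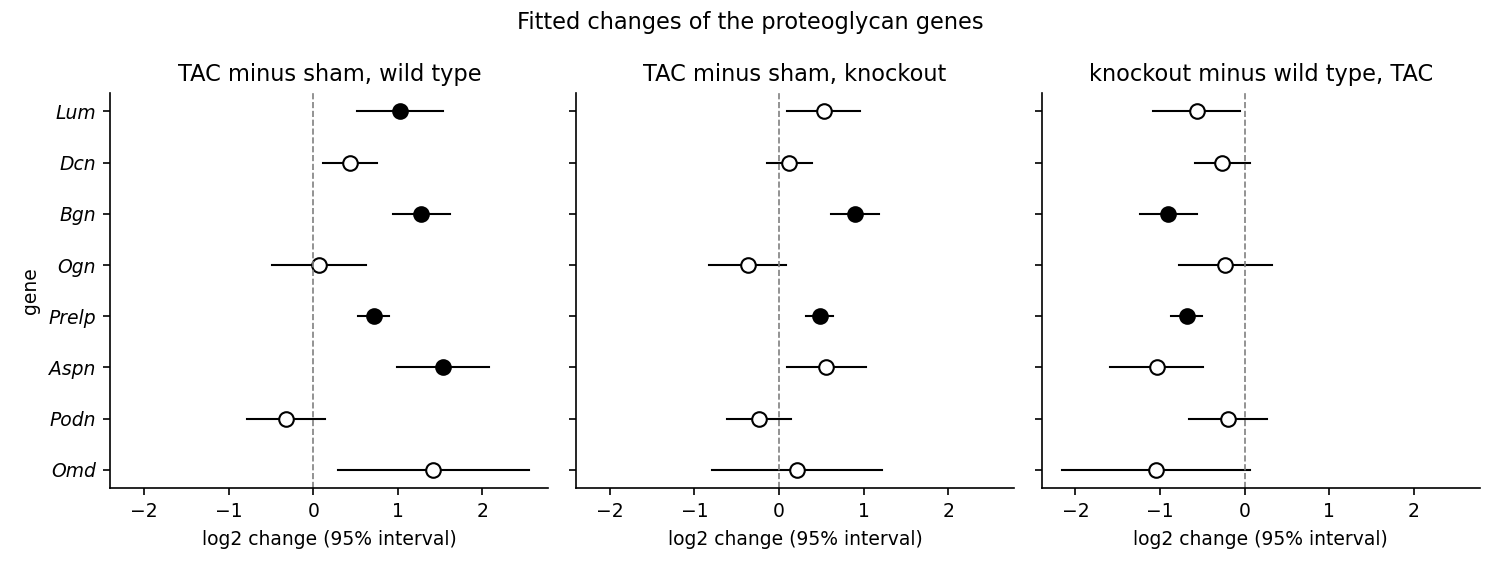
Fitted log2 change of each gene (x axis, with 95% interval) for TAC against sham in wild-type hearts (left), the same in knockout hearts (middle), and knockout against wild type after TAC (right). Filled points passed an adjusted p of 0.05: 4 genes at left, and Bgn and Prelp in the other panels.

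Ratios of CPM within a library remove its scaling, and are given as a description. Some pairs have transcripts of similar GC content, such as Ogn and Aspn (36.3% and 34.3%) or Lum and Dcn (41.9% and 42.8%). Ogn, which lies in the same cluster as Aspn with Omd between them, was read at 3.45, 3.84, 3.41 and 3.45 times Aspn in wild-type sham, at 1.38 times in wild-type TAC 2 and at 1.20 times in the library labelled wild-type TAC 1. In the knockout the ratio was 4.26, 5.53, 3.87 and 3.62 after sham and 2.17, 2.25, 2.80 and 1.75 after TAC. TAC and sham libraries did not overlap in either genotype, nor did the genotypes overlap after TAC. The 4 wild-type sham libraries, which split into a higher and a lower pair in the level of both genes, differed little in their ratio. The ratio of Aspn to its direct neighbour Omd overlapped between sham and TAC in both genotypes, and was 18.9 to 53.7 in wild-type sham, 38.6 in wild-type TAC 2 and 22.2 in the library labelled wild-type TAC 1.

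The ratio of Lum to Dcn, neighbours on chromosome 10, was higher in TAC than in sham libraries of both genotypes without overlap. Lum was at 0.19, 0.13, 0.16 and 0.13 times Dcn in wild-type sham and 0.24 and 0.22 after TAC, and at 0.13 to 0.15 in knockout sham and 0.17 to 0.22 in knockout TAC. Within class I, the ratio of Dcn to Bgn was 2.98, 2.17, 2.37 and 1.68 in wild-type sham and 1.25 and 1.29 after TAC. It was 3.21, 4.22, 3.05 and 3.15 in knockout sham and 2.02, 1.93, 2.64 and 1.54 in knockout TAC. This ratio separated all 4 pairs of groups compared. Transcripts of Dcn and Bgn differ in GC content (42.8% and 52.5%), as do those of Lum and Aspn (41.9% and 34.3%). The part of the GC gap in the ratios of these pairs was not tested. The ratio of Lum to Aspn was 1.47 to 1.87 in wild-type sham, 1.54 to 1.89 in knockout sham and 1.55 to 1.83 in knockout TAC, and 1.21 and 1.22 in the wild-type TAC libraries. These ratios were singled out after their values were seen. Of the 28 ratios between pairs of members, 13 separated TAC from sham libraries without overlap in wild type and 11 in the knockout. How often ratios of genes outside the members separate the groups was not computed.

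**Figure D3:**
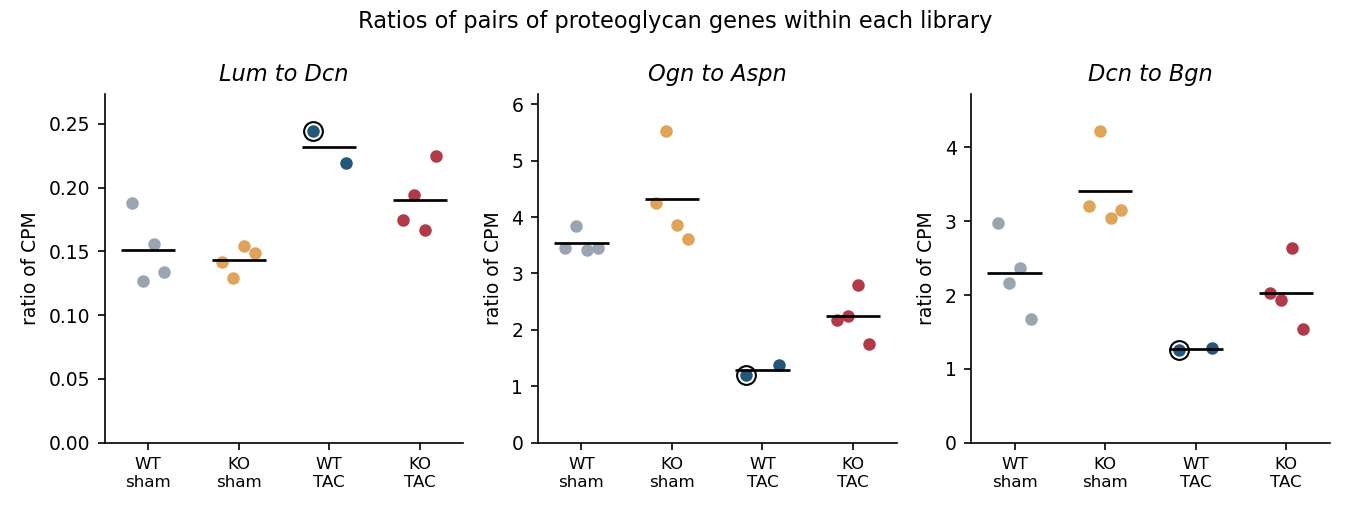
Ratio of CPM within each library (y axis, from 0) for Lum to Dcn, Ogn to Aspn and Dcn to Bgn, by group (x axis); points are libraries, bars group means, and the ring marks the library labelled wild-type TAC 1. Ogn to Aspn lies at 3.41 to 3.84 in wild-type sham and at 1.20 and 1.38 in wild-type TAC.

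Across libraries the 8 genes fell into sets. Correlations are Pearson's r of log2 CPM over 14 libraries, which share depth, composition and group, and are a description. Lum and Aspn had the highest r, 0.97, and 0.95 after each group's mean was subtracted. Bgn and Prelp had 0.93, but 0.43 with group means subtracted, so that most of their likeness lay between groups. After the subtraction, Lum, Dcn, Ogn, Aspn and Omd had r between 0.67 and 0.95 with each other, and between -0.22 and 0.37 with Bgn and Prelp. Ogn came into this set only with the subtraction, since as read it had r of 0.32 with Lum, 0.32 with Aspn and 0.60 with Dcn. Podn was then between -0.34 and 0.16 with each of the others. These 5 genes are those whose transcripts have 34.3% to 42.8% GC, and within wild-type sham all 5 were higher in libraries 1 and 3, which had the higher GC gap, than in 2 and 4.

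**Figure D4:**
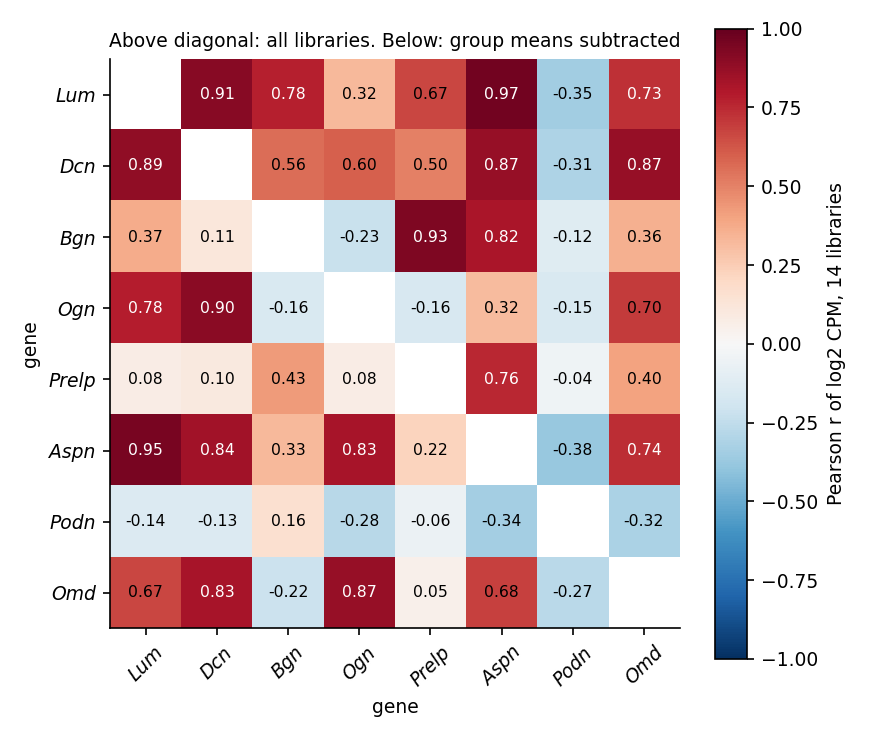
Pearson's r of log2 CPM between pairs of the 8 genes over 14 libraries, above the diagonal as read and below it with group means subtracted (red positive, blue negative). Below the diagonal, Lum, Dcn, Ogn, Aspn and Omd lie at 0.67 to 0.95 with each other and at -0.22 to 0.37 with Bgn and Prelp.

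**Figure D5:**
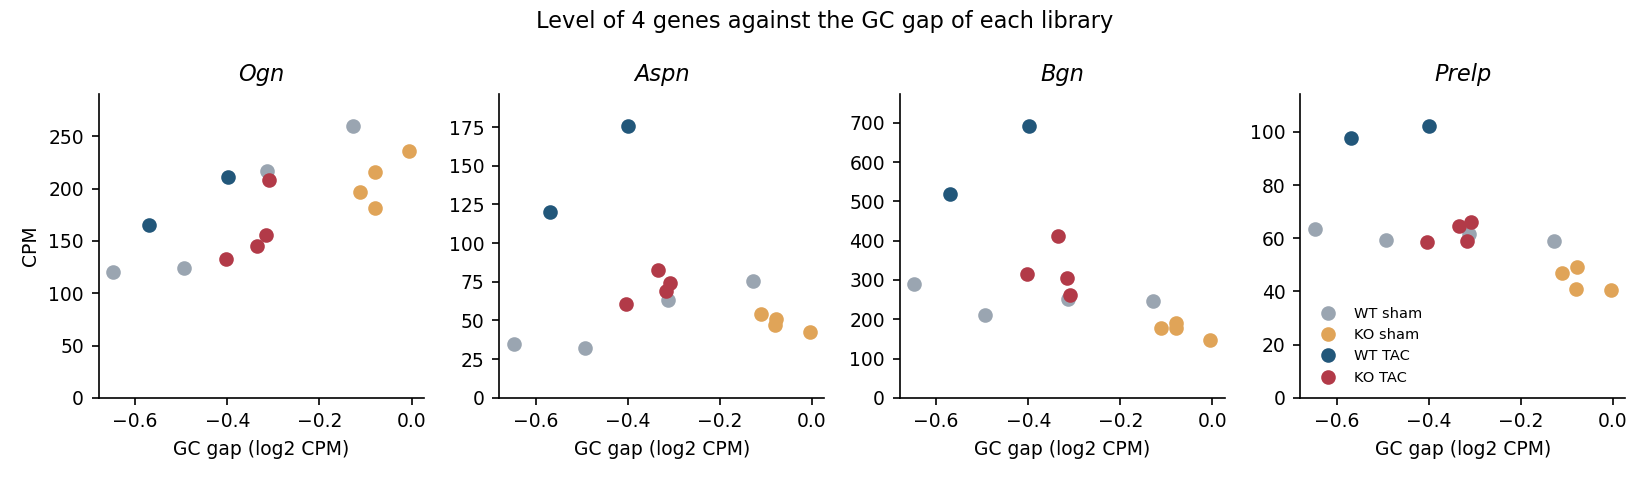
CPM (y axis, from 0) of Ogn, Aspn, Bgn and Prelp against the GC gap of each library (x axis, log2 CPM of the GC-poorest minus the GC-richest 20% of genes), coloured by group. Wild-type sham libraries spread from -0.65 to -0.13, and within them Ogn runs from 120 to 260 CPM while Prelp stays between 59.0 and 63.5.

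The tested genes most like each member, by r over the 14 libraries, were named by a fixed rule, the 3 highest for each, as a description. Bgn was closest to Igfbp7 (0.98), which encodes a secreted binding protein of insulin-like growth factors, to Pcolce (0.98), the procollagen C-proteinase enhancer, and to Arap1 (0.98). Prelp was closest to Mxra8 (0.98), Timp2 (0.97), a metalloproteinase inhibitor, and Fbln5 (0.97), an elastic fibre protein. Aspn was closest to Fxyd6 (0.96), Ap3s1 (0.94) and Thbs4 (0.94), a thrombospondin, Dcn to Anxa1 (0.96), Casp12 (0.94) and Ntan1 (0.93), and Lum to Tmsb4x (0.95), S100a13 (0.94) and Casp12 (0.93). Ogn was closest to Snrpg (0.92), Ssb (0.91) and Sptssa (0.91), Omd to Prdx4 (0.93), Sugt1 (0.92) and Sms (0.91), and Podn to Zfp512b (0.92), Thap3 (0.90) and Grik5 (0.90). With group means subtracted, the closest became Psma4 for Lum (0.96), Kcnt2 for Dcn (0.98), Cbwd1 for Ogn (0.97), Snrpe for Aspn (0.96), Xrcc4 for Omd (0.97), Atg4c for Prelp (0.93) and a pseudogene, Ppp4r1l-ps, for Podn (0.97). For Bgn the closest were then Pdpn (0.92), Kctd12b (0.89) and Cd248 (0.88), of which Pdpn and Cd248 are surface proteins of activated stromal cells.

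Levels were compared between genes per length, as counts per kb of exon scaled to the same total in each library. Over 14 libraries Dcn was first (337 ± 48, SD), followed by Ogn (226 ± 50.2), Bgn (156 ± 76.1), Lum (141 ± 49.6), Aspn (94.1 ± 49.1), Prelp (54.6 ± 15.9), Podn (12.4 ± 3.10) and Omd (3.90 ± 2.50). Neighbours from Ogn to Prelp in this order differed by less than the larger SD of each pair, which includes differences between groups. Dcn stood above Ogn, Prelp above Podn and Podn above Omd by more than the larger SD. This order pools groups that differ: in the wild-type TAC libraries Bgn, at 271 and 348, stood above Ogn, at 206 and 252. The order also depends on the length used: the union of all annotated exons of Dcn is 5838 bases against 1758 for its longest principal transcript, and that of Bgn 6099 against 2419. With principal transcripts, Bgn passed Ogn for the second place and Dcn's share of the summed level of the 8 went from 33.4% to 55.3%. By the exon union, Dcn's share was 33.9% ± 1.33 in wild-type sham (n = 4), 27.5% and 28.1% in the wild-type TAC libraries, 35.6% ± 0.79 in knockout sham (n = 4) and 33.6% ± 2.08 in knockout TAC (n = 4).

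The counts of Prelp came mostly from outside its coding part: coding reads were 28.9% ± 3.54 of the gene count in wild-type sham (SD, n = 4). The coding share was 69.1% ± 2.17 for Lum, 75.4% ± 1.47 for Dcn, 46.3% ± 2.01 for Bgn, 44.2% ± 2.85 for Ogn and 61.3% ± 2.38 for Aspn in the same libraries. For Lum it was 61.8% and 65.7% in wild-type TAC, below all wild-type sham libraries (66.0% to 70.8%). With coding counts alone, the rise of Prelp in the knockout (log2 0.34, adjusted p = 0.0696) and its genotype difference in sham hearts (log2 -0.36, adjusted p = 0.126) were no longer called, while all 4 wild-type TAC calls remained. Some reads cannot be assigned with certainty, since the labels do not state the counting strand. Aspn, Omd and Ogn lie inside the antisense gene Cenpp, read at 2.48 to 5.23 CPM, a level similar to that of Omd. The long transcript of Podn overlaps Scp2, on the same strand at 257 to 329 CPM.

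The wider family added 10 genes, of which 5 were tested. Fmod (fibromodulin, a class II collagen binder encoded beside Prelp) was at 5.62, 0.23, 0.77 and 0.49 CPM in wild-type sham and at 24.8 and 46.6 after TAC, and at 0.31 to 1.10 in knockout sham and 1.62 to 11.5 in knockout TAC. It rose 23.1-fold in wild type (log2 4.53, SE 0.77, adjusted p = 0.00121) and 8.19-fold in the knockout (log2 3.03, SE 0.91, adjusted p = 0.0401). After TAC it was lower in the knockout (log2 -2.90, SE 0.69, adjusted p = 0.0489). Without the library labelled wild-type TAC 1 the rise in wild type was called (log2 4.91, adjusted p = 0.00637) and the genotype difference was not (log2 -3.29, adjusted p = 0.118), and without wild-type sham 1 the rise was 6.18 on the log2 scale (adjusted p = 0.000121). Ecm2, which lies beside Aspn, was at 42.8 to 73.3 CPM in wild-type sham and 67.4 and 86.8 after TAC, and did not pass (log2 0.46, adjusted p = 0.0756). Kera and Optc were at most 0.46 CPM in every library.

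Some genes that build the sugar chains passed the test. In either direction, 12.2% of all genes passed in wild type, 13.0% in the knockout and 1.48% between genotypes after TAC. The counts of this and the following gene lists stand beside these shares. Of 21 tested genes for the linker and the chondroitin or dermatan sulfate chain, 2 rose in wild type (median log2 0.16): Chpf, a chondroitin polymerizing factor (1.52-fold), and Dsel, a relative of the dermatan sulfate epimerase (1.62-fold). In the knockout 1 rose (Chpf, 1.36-fold) and 1 fell, the phosphatase gene Pxylp1 (0.721 times), with a median of 0.13. After TAC 1 was lower in the knockout, Chpf (0.697 times). Of 7 keratan sulfate genes, 1 rose in wild type, the galactosyltransferase gene B4galt1 (1.21-fold), and 2 in the knockout, B4galt4 (1.29-fold) and the sialyltransferase gene St3gal2 (1.21-fold). Among 17 other proteoglycan genes, 4 rose and 2 fell in wild type, with versican (Vcan) 2.95-fold and glypican 6 (Gpc6) 1.51-fold higher and glypican 3 (Gpc3) at 0.550 times, and 5 rose in the knockout, with Prg4 1.80-fold, Esm1 2.20-fold and Sdc3 1.39-fold higher. When the library labelled wild-type TAC 1 was left out, 1 chain gene and 1 of the other proteoglycan genes rose in wild type, and no keratan sulfate gene did. None of the 17 fell, and no chain gene, Chpf included, was called lower in the knockout after TAC.

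The fibrillar collagens, which these proteoglycans bind, rose in all 7 cases in wild type (median log2 1.55), with Col1a2 2.76-fold, Col5a2 3.34-fold and Col1a1 3.0-fold higher. In the knockout 5 of the 7 rose (median 0.77), and after TAC 5 were lower in the knockout (median -1.14). Of 8 TGF-beta ligands and receptors, 4 rose and 1 fell in wild type, with Tgfb2 3.33-fold and Tgfb3 2.26-fold higher and the co-receptor gene Tgfbr3 at 0.622 times. In the knockout 3 rose and 1 fell, and after TAC 2 were lower in the knockout, Tgfb2 (0.476 times) and Tgfb3 (0.595 times). When the library labelled wild-type TAC 1 was left out, 6 collagens and 2 of the TGF-beta genes rose and none of the 8 fell in wild type, and 4 collagens and 1 TGF-beta gene were lower in the knockout after TAC.

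Receptors reported to bind these proteoglycans rose in 6 of 10 cases and fell in 1 in wild type, with Cd44 1.89-fold, Egfr 1.87-fold and Tlr2 1.75-fold higher. In the knockout 3 rose, among them Cd44 (1.68-fold) and Tlr4 (1.51-fold), and 1 fell, Erbb4 (0.703 times). After TAC, Lrp1 (0.679 times) and P2rx7 (0.594 times) were lower in the knockout. Of 13 genes for proteases that cleave the core proteins and their enhancer, 4 rose in wild type, with Mmp2 2.43-fold, Mmp14 2.30-fold and Pcolce 1.78-fold higher. In the knockout 5 rose and 1 fell, and after TAC Mmp2 (0.515 times) and Pcolce (0.631 times) were lower in the knockout. Without the library labelled wild-type TAC 1, 1 receptor rose and none fell in wild type and none of the 10 was called lower in the knockout after TAC, while for the proteases 3 rose and 1 fell and 2 were lower in the knockout.

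Most markers of activated fibroblasts rose after TAC in both genotypes, and resident fibroblast markers moved in both directions. Of 12 genes of activated fibroblasts, 10 rose in wild type and 10 in the knockout, and 8 were lower in the knockout after TAC, with Postn (periostin) 10.1-fold and 2.75-fold higher after TAC. Their summed level was 246 to 362 CPM in wild-type sham, 242 to 310 in knockout sham, 1290 and 1836 in wild-type TAC and 414 to 625 in knockout TAC. The 12 resident fibroblast markers summed to 2332 to 2636, 1915 to 2232, 2569 and 2855, and 2255 to 2387 CPM in the same order, and the 8 proteoglycan genes to 960 to 1533, 1089 to 1227, 1736 and 2279, and 1306 to 1497. Of the resident markers, whose wild-type sham and TAC sums overlapped, 3 rose and 1 fell in wild type (median log2 0.17), where Pi16 was 2.24-fold higher and Scara5 at 0.313 times. In the knockout 4 of these 12 rose and 1 fell, beside 2 of the 8 members that rose. After TAC, with the library labelled wild-type TAC 1 included, 3 resident markers were lower and 1 was higher in the knockout (median log2 -0.21). The median of the 12 was -0.16 without that library, and these calls rest on its inclusion. Of 10 tendon, cartilage and valve markers 5 were tested, and Tnmd and Acan passed the low-count filter only through TAC libraries (at most 0.39 and 0.54 CPM in sham), so no count of calls is given for them. Scx was at 4.11 to 5.86 CPM in wild-type sham, 10.9 in wild-type TAC 2 and 14.4 in the library labelled wild-type TAC 1. Sox9 was at 3.69 to 5.93, 10.5 and 11.4 CPM in the same order. Scx and Sox9 rose 2.53-fold and 2.33-fold in wild type and 1.90-fold and 2.03-fold in the knockout. The 10 summed to 8.55 to 20.2 CPM in wild-type sham, 7.89 to 10.8 in knockout sham, 54.7 and 72.2 in wild-type TAC and 18.6 to 28.5 in knockout TAC. These 10 include Fmod and Chad, which were also counted in the wider family. Fmod alone gave 24.8 and 46.6 CPM of the 2 wild-type TAC sums. The 5 markers not tested, such as Col2a1 and Matn1, were too low, and Matn1 was at 0 in 13 of the 14 libraries. Macrophage markers rose in 5 of 9 cases in wild type and 6 of 9 in the knockout. Without the library labelled wild-type TAC 1, 10 activated and 2 resident fibroblast markers and 1 macrophage marker rose in wild type, and 6 activated fibroblast markers were lower in the knockout after TAC. The part of these cell types in the proteoglycan levels was not tested.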

How the data were processed

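Poly(A)-enriched RNA of 14 mouse hearts was sequenced with a strand-specific kit, per the labels' protocols. STAR 2.4.2a, Picard 2.10.3, bcl2fastq 2.17.1.14 and the builds GRCm38 and mm10 are named in the submitters' processing notes. The deposited files hold whole-number counts of reads per gene, with coding and UTR parts that sum to the gene count in 14 of 14 files; the sources used here do not give the counter's strand setting or annotation. Reads in no feature were 15.3% of the total on average and ambiguous reads 1.52%, and both stayed out of library sizes. Of 51912 gene identifiers, 51633 were found in GENCODE M21, which gave names, positions and lengths.

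Counts were tested with edgeR 4.0.16 (R 4.3.3): TMM, filterByExpr with a minimum count of 10 (15651 genes kept, 8 of 8 members), quasi-likelihood test, 1 coefficient for each of the 4 groups, all 14 libraries in 1 fit, Benjamini-Hochberg over all genes, threshold 0.05. The coefficient of variation between libraries was 11.8%. SE is the log2 change over the root of F, and 95% intervals use it. Log2 CPM for correlations used a prior count of 2. The fit was tested on simulated data. DESeq2 1.42.0 and the other alternatives are in the closing section. Whether libraries come from separate animals is not stated; p-values cover the spread among libraries, and that may be technical. Within groups, every pair of libraries differed beyond sampling noise (chi-square per degree of freedom at least 3.43). Named genes are the 8 members, up to 3 genes of smallest p from each list in a comparison, the 3 genes most like each member, and family genes beside members. The members and lists were chosen with earlier results of these data known. GC content was read from the longest principal transcript, or the longest where none is tagged, for 99.8% of tested genes. Counting intervals aside, depth limits Omd, read at 12 to 103 counts.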

Additional observations from a re-analysis of the deposited data

Results flagged for a closer look

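Lum stood at 142 CPM in knockout TAC 4, above the 112, 114 and 116 CPM of the other knockout TAC libraries. Its gap to the nearest of them was 0.87 of the group's whole range, above Dixon's 95% critical value for 4 samples. Of 24 such groups of member levels tested, this was the 1 that passed, and chance flags about 1 in 20. The same library was the highest of its group for Bgn (411 CPM) and Aspn (82.8 CPM), but not for Prelp or Dcn.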

How the results depend on the processing

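The direction and side of the threshold of each member's change held in 904 of 992 values over the alternatives; 38 passed the threshold only there, 19 lost it and 31 changed sign. The 992 include many results that were not called in the main fit and stayed so. They also include fits that left out a library outside the comparison, so 904 does not measure how often calls held. RLE and upper-quartile scaling changed no count of members called (4 in wild-type TAC, 2 in knockout TAC, 1 between genotypes in sham, 2 after TAC, 0 for the interaction). Without the low-count filter the counts were 6, 4, 2, 4 and 1, the last being Aspn. With the fit restricted to the groups compared they were 3, 4, 2 and 2. DESeq2 gave 4, 2, 2, 3 and 0, and coding counts 4, 1, 0, 2 and 0. Libraries of 10-week mice gave 4, 0, 0, 3 and 0, and the share of reads outside features as a covariate 3, 0, 0, 2 and 0. Chosen after seeing the data, leaving out both the library labelled wild-type TAC 1 and wild-type sham 1 gave 4, 4, 2, 1 and 0, and the GC gap as a covariate gave 6, 6, 0, 7 and 0. Leaving out 1 library at a time gave 3 to 6, 2 to 3, 0 to 1, 1 to 3, and 0 throughout. The causes were not tested.

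Signs changed in the following cases. Between genotypes in sham hearts, leaving out 1 library gave log2 changes from -0.24 to 0.17 for Aspn, -0.049 to 0.19 for Dcn, -0.23 to 0.22 for Lum and -0.17 to 0.59 for Omd. There, 10-week libraries gave 0.046 for Aspn and 0.082 for Lum, leaving out both libraries 0.15 and 0.20, and the GC gap -0.36 for Dcn, -0.53 for Ogn and -1.36 for Omd. For Ogn, the wild-type TAC change was -0.018 with coding counts and -0.12 to 0.29 with 1 library left out, and the knockout TAC change 0.29 with the GC gap. For Omd in the knockout it was -0.25 with the share of reads outside features and -0.32 to 0.42 with 1 library left out. For Podn, the share of reads outside features gave 0.36 in the knockout and 0.031 in wild type, and 10-week libraries 0.028 in the knockout. With 1 library left out Podn ran from -0.42 to 0.069 between genotypes after TAC and -0.13 to 0.36 for the interaction, which was -0.12 without both libraries and -0.025 with the GC gap. With principal transcripts as length, 6 of the 8 ranks were kept, and Bgn and Ogn traded ranks 2 and 3. CPM on unscaled library sizes moved none of 32 group means by more than 1 SD. No paired analysis was possible because replicate numbers only follow accession order.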
